A study of Mus musculus with 14 samples.

Results

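Izumo1r encodes folate receptor 4, also called Juno, a cell-surface protein named for its likeness to the folate receptors. On the egg it is the partner of the sperm protein IZUMO1, and in the immune system it is best known from regulatory T (Treg) cells and from anergic CD4 T cells, where it is used as a surface marker together with CD73. Folate receptors as a family are known for taking up folate, which one-carbon metabolism uses to make nucleotides and methyl groups. The likeness in name does not mean that folate receptor 4 does so, which was not measured here. ATAC-seq measures where the Tn5 transposase can reach the DNA, so that open promoters and enhancers gather reads. A read count there describes chromatin and not the amount of a transcript or a protein.

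The Izumo1r locus comprised 53 of the 240778 windows of a bulk ATAC-seq table, namely those whose centre lay nearest to the Izumo1r start site among protein-coding genes and within 100 kb of it. The gene was chosen by the day 7 comparison of the genotypes described here, in which a window 1.38 kb inside the gene stood out. Values from that comparison are therefore a description, and no test is attached to them. Treg cells came from spleen and lymph nodes of mice whose Foxp3 was fused to an auxin-inducible degron (Foxp3AID), and every mouse received the ligand 5-ph-IAA. In R26TIR1(F74G) mice the ROSA26 locus carried the F74G form of TIR1, which directs degron-tagged proteins to degradation in the presence of the ligand, whereas R26WT mice had the ROSA26-WT genotype and served as treated controls. There were 4 mice of each genotype after 3 days and 3 of each after 7 days, 14 libraries in all. By the study's methods the Foxp3 allele also encodes ZsGreen and a Cre recombinase, TIR1(F74G) is switched on by that Cre, and the sort was on CD4, TCRβ and these reporters, so that TIR1(F74G) was confined to cells that had expressed Foxp3. The study's text describes the mice of this work as heterozygous Foxp3AID/WT females, in which a part of the Treg cells keeps the other Foxp3 allele and no reporter, and speaks of resting and activated cells on day 7. The labels say Treg without genotype of the second allele, sex, age or activation state.

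The libraries held 5653289 to 20184487 counts. The shallowest were R26TIR1(F74G) day 3 replicate 1 and R26WT day 7 replicate 3, with 6348754 counts. Values are counts per 1000000 counted reads of a library (CPM), after its total was corrected by a TMM factor, which aligns the bulk of the windows between all 14 libraries. Each window is 201 bp long, so CPM values can be compared between windows. Start sites of the T cell genes Cd3e, Cd4, Cd5 and Lck each had a window. On day 3 the summed CPM of these was 42.1 to 45.7 in R26WT and 28.5 to 40.1 in R26TIR1(F74G) mice, without overlap. On day 7 the sums were 39.2 to 41.9 and 37.6 to 42.6. Taken singly, 4.09% of all windows did not overlap between the genotypes on day 3. Log2 differences at the 4 genes were -0.35 to -0.17 that day, and 0 were called by edgeR at an adjusted p under 0.05. An unadjusted p under 0.05 was found at 2 of them, against 7.55% of all windows. Of the Treg genes, Il2ra, Ctla4 and Ikzf2 had a window within 1 kb of the start, and Foxp3 had 3 windows 4.34 to 4.94 kb downstream of its start, the most accessible at 8.92 CPM. Group means of these 3 were lower in R26TIR1(F74G) than in R26WT mice on both days. On day 3 they were 7.37 against 9.81, 2.16 against 2.66 and 1.99 against 2.56 CPM. On day 7 they were 9.09 against 9.65, 3.05 against 3.55 and 2.72 against 3.38 CPM. The last 2 windows overlap each other, and no test is given for the 3. Log2 differences between the genotypes on day 3 were -0.43 (SE 0.14, adjusted p = 0.48) at Il2ra, -0.06 (SE 0.14) at Ctla4 and 0.06 (SE 0.12) at Ikzf2. On day 7 they were -0.29 (SE 0.14), -0.17 (SE 0.14) and 0.14 (SE 0.12), with adjusted p-values of 0.84, 0.91 and 0.92. No window used here lay within 1 kb of the starts of the B cell genes Cd79a, Ms4a1 and Pax5, the myeloid genes Lyz2 and Csf1r or the NK cell genes Ncr1 and Klrb1c. A window was present at the B cell gene Ebf1, with 2.52 to 5.55 CPM in R26WT and 1.60 to 3.69 CPM in R26TIR1(F74G) mice on day 7, and 2.51 to 3.76 CPM and 2.76 to 5.22 CPM on day 3. Windows were also present at Cd14 (4.48 CPM), Spi1 (4.22 CPM) and Itgam (1.12 CPM), and at the CD8 T cell genes Cd8b1 (12.5 CPM) and Cd8a (1.33 CPM). The part of cell composition in the values below was not tested, and in bulk samples fewer cells with an open site cannot be told apart from a less open site per cell.

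In RefSeq coordinates of GRCm38, the build the authors' files use as mm10, Izumo1r spans chr9:14885814-14903951 on the minus strand. Its start site is at 14903951, and the promoter table of the same annotation places a start 184 bp further into the gene. The 300 bases around that second start, chr9:14903718-14904017 on the minus strand, are shown because the window nearest to the gene's start begins in them. Capitals mark the 165 bases that fall in that window.
Izumo1r promoter: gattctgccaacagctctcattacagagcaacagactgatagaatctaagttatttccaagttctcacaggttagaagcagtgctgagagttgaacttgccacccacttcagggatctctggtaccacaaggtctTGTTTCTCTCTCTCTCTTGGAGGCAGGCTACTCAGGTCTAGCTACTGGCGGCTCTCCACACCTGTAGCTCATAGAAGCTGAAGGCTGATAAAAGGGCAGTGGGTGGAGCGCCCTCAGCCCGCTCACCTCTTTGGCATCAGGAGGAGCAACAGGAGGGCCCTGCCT
The sequence contains 52.3% G and C, against a median of 56.3% over 17491 protein-coding promoters, and 3 CpG dinucleotides against a median of 13. Of 7 motifs searched on both strands, 1 had a match, the RUNX core TGTGGT. It lies on the strand opposite to the one shown. The printed letters there read accaca, from position 124 counted from the 5′ end in the lower-case part. That motif was present in 15.1% of all promoters of the same length. The letters of the forkhead motif GTAAACA (in 2.94% of promoters), the forkhead repeat TTTGTTTG (2.18%), the STAT motif TTCNNNGAA (7.83%), the ETS motif CAGGAAGT (3.29%), the AP-1 motif TGANTCA (7.08%) and the TCF motif CTTTGAT (3.25%) were not in this stretch. These motifs overlap no other motif of the list there, and a match describes letters only.

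The 53 windows fell into 33 regions once overlapping windows were joined, and into 11 groups separated by more than 2 kb. Of the windows, 40 lay upstream of the start, 13 downstream and 10 of these inside the gene. The farthest was 70.7 kb upstream, where the gene Panx1 became the nearest start. Gpr83, a G protein-coupled receptor gene of the Treg signature, bounded the other side, with its start 44071 bp from that of Izumo1r. The locus was rich in windows, since 347 of 15874 genes with a window within 100 kb had more, and the median gene had 8.

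**Figure D1:**
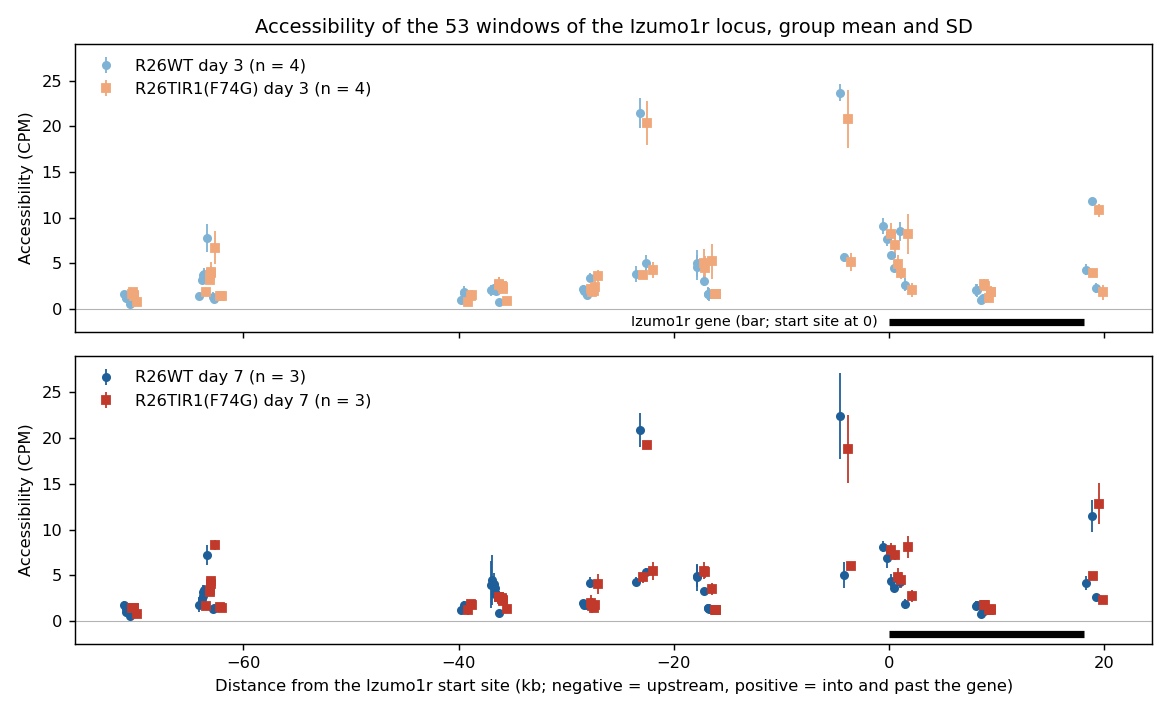
Accessibility in CPM (vertical axis) of each of the 53 windows against distance from the Izumo1r start site in kb (horizontal axis). Circles are R26WT and squares R26TIR1(F74G) mice, day 3 above and day 7 below, as group mean with SD bars, drawn slightly apart sideways; the tallest windows lie 4.20 and 22.81 kb upstream and the black bar is the gene.

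The 2 most accessible windows lay upstream of the gene. The first, chr9:14908048-14908249, lay 4.20 kb from the start, and its mean of 21.5 CPM exceeded that of 96.7% of all windows. The second, chr9:14926659-14926860, lay 22.81 kb upstream and had 20.5 CPM. The third, at 11.7 CPM, was 19.17 kb downstream and so just past the end of the gene. The window nearest to the start had 7.22 CPM and its upstream neighbour, 0.21 kb before the start, 8.38 CPM. The latter, the highest within 1 kb of the start, exceeded 29.3% of the 10540 windows that were highest within 1 kb of a protein-coding start, whose median was 17.4 CPM. With 1 window counted per joined region, the 6 windows from 1.8 kb inside the gene to 0.2 kb upstream held 22.0% of the locus' counts, the group 22.3 to 23.2 kb upstream 18.8% and the pair 3.9 to 4.2 kb upstream 17.1%.

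The sum over all 53 windows was nearly the same in every mouse. It was 196.5 to 208.8 CPM in R26WT and 190.2 to 212.4 CPM in R26TIR1(F74G) mice on day 3, and 185.9 to 209.4 CPM and 197.9 to 203.1 CPM on day 7. The 4 ranges overlap. Group means were 202.9 ± 5.57 (SD, n = 4), 200.8 ± 9.37 (n = 4), 196.4 ± 12.0 (n = 3) and 200.6 ± 2.62 CPM (n = 3) in the same order. Windows that overlap count some reads more than once in these sums.

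The window 1.38 kb inside the gene, chr9:14902475-14902676, differed between the genotypes on day 7, and its values on day 3 were close to those of the R26TIR1(F74G) mice of day 7. On day 7 it had 3.55, 4.94 and 4.35 CPM in the R26WT mice and 8.02, 6.91 and 9.36 CPM in the R26TIR1(F74G) mice. On day 3 it had 10.0, 7.94, 7.72 and 8.38 CPM in the R26WT mice and 7.73, 10.4, 5.44 and 9.25 CPM in the R26TIR1(F74G) mice. The 3 control mice of day 7 thus lay below all 11 other mice, whose range was 5.44 to 10.4 CPM, and the 3 R26TIR1(F74G) mice of day 7 lay inside the range of day 3. Windows in which the day 7 controls were below all other mice made up 0.338% of all 240778 windows, and this was the one among the 53. Since that separation on day 7 led to the choice of the gene, its position outside the other mice is no independent evidence.

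The depth limits how firmly this order can be read. The 3 control values of day 7 rest on 55, 85 and 29 counts. Their exact 95% Poisson intervals, which cover counting error only, run from 2.68 to 4.63, from 3.95 to 6.11 and from 2.91 to 6.25 CPM. The lowest of the other mice, R26TIR1(F74G) day 3 replicate 3, had 73 counts and an interval of 4.27 to 6.84 CPM, which overlaps all 3. The lowest R26TIR1(F74G) mouse of day 7 had 116 counts and an interval of 5.71 to 8.30 CPM, which does not overlap that of replicate 1.

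As log2 differences, R26TIR1(F74G) minus R26WT was 0.92 (SE 0.18) on day 7 and -0.03 (SE 0.16) on day 3. The day 3 value, from mice that did not enter the choice, had an adjusted p of 0.98 in edgeR's quasi-likelihood test over all windows. From day 3 to day 7 the window differed by -0.98 (SE 0.19) in R26WT mice and by -0.04 (SE 0.17) in R26TIR1(F74G) mice. The difference of the genotype effects between days was 0.95 (SE 0.25). These 3 values share the day 7 mice that led to the choice and are given without a test. The value on day 7 was 0.78 to 1.08 when 1 mouse was left out, and that over time in R26WT mice -1.14 to -0.84.

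**Figure D2:**
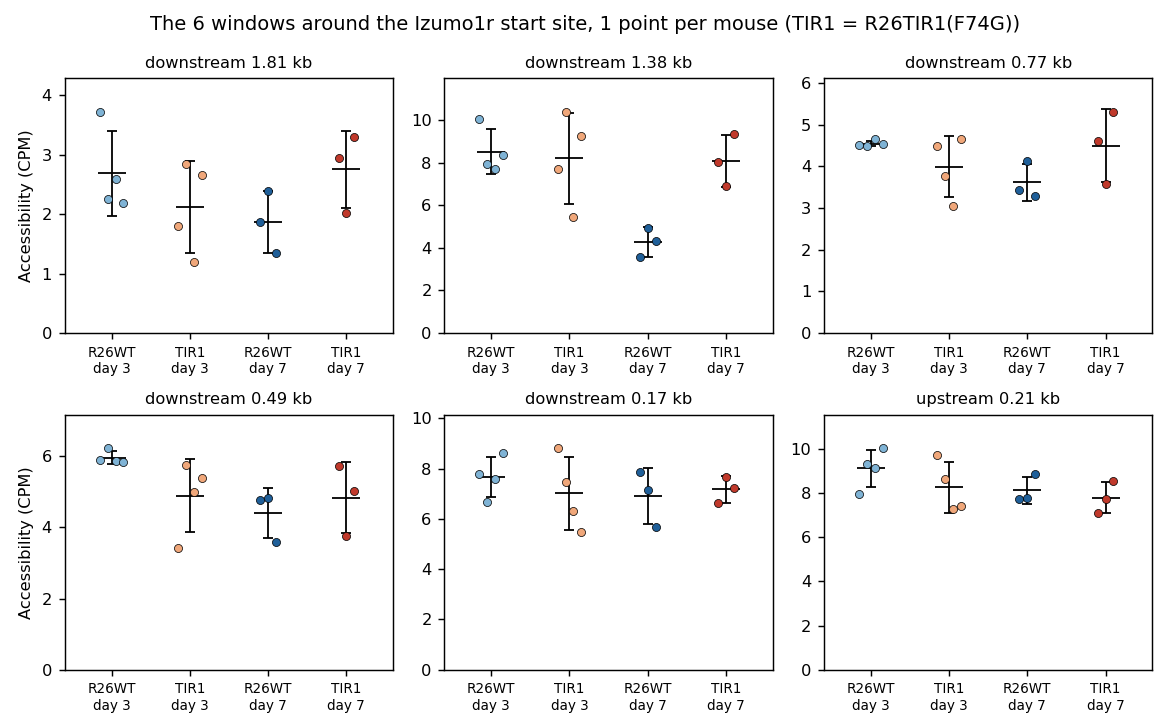
Accessibility in CPM (vertical axes from 0) of the 6 windows around the Izumo1r start site in each mouse by genotype and day; points are mice, horizontal lines means and bars SDs. In the window 1.38 kb downstream the R26WT mice of day 7 lie at 3.55 to 4.94 CPM and the other groups between 5.44 and 10.4 CPM, whereas in the windows 0.17 kb downstream and 0.21 kb upstream the groups overlap.

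The other 5 windows around the start gave smaller differences. On day 7 the log2 difference was 0.49 (SE 0.26) at 1.81 kb, 0.30 (SE 0.20) at 0.77 kb, 0.10 (SE 0.19) at 0.49 kb and 0.02 (SE 0.16) at 0.17 kb inside the gene, and -0.04 (SE 0.15) at 0.21 kb upstream. On day 3 the same 5 windows had values from -0.27 to -0.16. The window 1.81 kb inside the gene had 1.87, 2.38 and 1.35 CPM in the R26WT and 2.94, 2.03 and 3.29 CPM in the R26TIR1(F74G) mice of day 7. The groups overlapped there by 1 mouse each. Over the 14 mice, log2 CPM in the window at 1.38 kb correlated with that at 1.81 kb (Pearson's r = 0.71) and at 0.77 kb (0.69). It also correlated with the windows 63.49 kb (0.69) and 63.44 kb (0.57) upstream. These were the 4 of the 52 other windows with r above 0.5, and the median r over the 52 was 0.04. Without the 2 mice farthest from the median the 4 correlations were 0.68, 0.52, 0.17 and 0.1 in the same order. These correlations are descriptions, and their points share libraries and the mice that led to the choice.

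The window nearest to the start, chr9:14903681-14903882, which holds the 165 capital bases of the 300 shown above, overlapped between the genotypes on both days. It had 7.79, 6.68, 7.58 and 8.62 CPM in the R26WT and 8.81, 7.46, 6.34 and 5.47 CPM in the R26TIR1(F74G) mice on day 3, with a log2 difference of -0.16 (SE 0.16, adjusted p = 0.87), which was -0.25 without R26TIR1(F74G) replicate 1 and -0.06 without replicate 4. On day 7 it had 7.88, 7.15 and 5.70 CPM in R26WT and 6.63, 7.69 and 7.23 CPM in R26TIR1(F74G) mice. The window at 0.49 kb was the one member whose genotypes did not overlap on day 3. It had 5.89, 6.22, 5.87 and 5.84 CPM in R26WT and 3.42, 5.74, 4.99 and 5.39 CPM in R26TIR1(F74G) mice, a log2 difference of -0.23 (SE 0.17, adjusted p = 0.80). Of all windows 4.09% did not overlap between the genotypes on day 3, against 1 of the 53.

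The most accessible window, 4.20 kb upstream, had SDs between mice of 0.95 CPM in R26WT and 3.21 CPM in R26TIR1(F74G) mice on day 3, and of 4.72 and 3.69 CPM on day 7. It had 23.0, 25.004, 22.9 and 23.7 CPM in R26WT and 23.6, 21.6, 21.9 and 16.2 CPM in R26TIR1(F74G) mice on day 3. It had 27.3, 22.1 and 17.8 CPM and 14.8, 22.0 and 19.7 CPM on day 7. The genotypes overlapped on both days, with log2 differences of -0.20 (SE 0.12, adjusted p = 0.75) on day 3 and -0.28 (SE 0.14) on day 7. The day 3 value was -0.09 without R26TIR1(F74G) replicate 4. The day 7 value was -0.11 without R26WT replicate 1, -0.13 without R26TIR1(F74G) replicate 1 and -0.40 without R26TIR1(F74G) replicate 2. The window 22.81 kb upstream was the steadier of the tall windows. Its range over the 14 mice was 17.5 to 23.7 CPM, and its log2 differences were -0.09 (SE 0.12, adjusted p = 0.91) on day 3 and -0.14 (SE 0.12) on day 7. The window just past the gene had -0.13 (SE 0.14, adjusted p = 0.87) and 0.13 (SE 0.15).

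Across the locus, no window was called different between the genotypes on day 3 by edgeR's quasi-likelihood test at an adjusted p under 0.05. Of the 53 windows 52 were tested, since 1 had too few counts on day 3. Among all 235515 windows tested 0% were called. At an unadjusted p under 0.05 there were 17785 windows, or 7.55%, and 1 of the 52 members, and DESeq2 called 0 windows with 11762 at an unadjusted p under 0.05. The median log2 difference of the members was 0.04 and that of all windows 0.01. Of the members 29 were positive and 23 negative, from -0.37 to 0.65.

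The member with an unadjusted p under 0.05 on day 3 was also the one with the largest positive difference, chr9:14920694-14920895, 16.84 kb upstream. It had 2.94, 3.18, 2.46 and 3.84 CPM in R26WT and 7.91, 4.67, 3.50 and 4.75 CPM in R26TIR1(F74G) mice, so that 1 degradation mouse lay among the controls. The log2 difference was 0.65 (SE 0.21), with an adjusted p of 0.48, and was 0.46 (SE 0.20, adjusted p = 0.53) without R26TIR1(F74G) day 3 replicate 1, the shallowest library. Over all alternatives its adjusted p was 0.33 to 0.89. On day 7 the same window had a log2 difference of 0.08 (SE 0.21). The largest negative difference on day 3 was that of chr9:14884271-14884472, 19.58 kb downstream, at -0.37 (SE 0.27, adjusted p = 0.79). It was -0.15 without R26TIR1(F74G) day 3 replicate 2 and -0.76 without replicate 3, and its adjusted p over all alternatives was 0.70 to 1.0. It had 1.82, 2.78, 1.91 and 2.77 CPM in R26WT and 1.62, 1.23, 2.98 and 1.45 CPM in R26TIR1(F74G) mice.

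**Figure D3:**
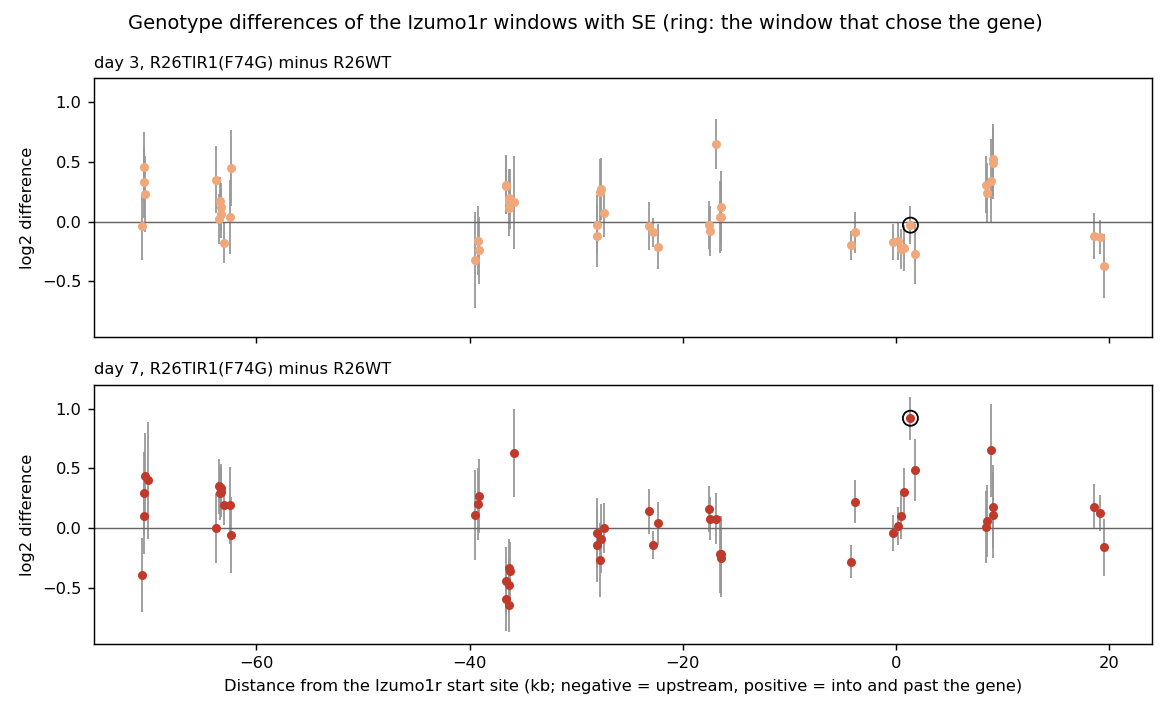
Log2 difference in accessibility, R26TIR1(F74G) minus R26WT (vertical axis, bars are SEs), of each Izumo1r window against distance from the start site in kb (horizontal axis), on day 3 above (52 windows) and day 7 below (53 windows). The ringed window 1.38 kb downstream moves from -0.03 to 0.92, and the windows around 36 kb upstream are mostly below 0 on day 7.

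Day 7 was the comparison that led to the gene, and its values are described only. Differences of the members ran from -0.64 to 0.92 with a median of 0.08, against -0.01 over all windows, and 33 were positive and 20 negative. In 5 of the 53 the genotypes did not overlap, and neither did they in 11.8% of all windows. The R26TIR1(F74G) mice were higher at 1.38 kb downstream and at 63.31 kb upstream, and lower in 3 windows of 1 joined region, 36.20 to 36.34 kb upstream.

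The group about 36 kb upstream was the other place at which the R26WT mice of day 7 stood apart, and there they were higher. In chr9:14940192-14940393, 36.34 kb upstream, they had 3.62, 3.08 and 5.40 CPM. The R26TIR1(F74G) mice of day 7 had 2.99, 2.21 and 2.12 CPM, and on day 3 the R26WT mice had 2.68, 2.25, 2.12 and 2.36 CPM and the R26TIR1(F74G) mice 2.52, 2.74, 2.83 and 1.93 CPM. The 3 day 7 controls were thus above the 11 others, an order found in 0.367% of all windows and in this 1 of the 53. In its neighbour 36.55 kb upstream the value of replicate 3, a shallow library, was 7.65 CPM, and the other day 7 controls had 3.17 and 2.67 CPM.

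From day 3 to day 7 in R26WT mice the log2 difference was 0.71 (SE 0.23) in the window at 36.34 kb and 0.91 (SE 0.26) at 36.55 kb. Neither passed the adjusted threshold in edgeR's test, with adjusted p-values of 0.91 and 0.85. Both windows were picked after their day 7 values were seen, and the comparison reuses those R26WT mice. The test is therefore no independent evidence. Without R26WT day 7 replicate 3 the log2 differences were 0.51 (SE 0.24) and 0.44 (SE 0.26). In R26TIR1(F74G) mice the same differences were -0.05 (SE 0.23) and 0.01 (SE 0.26). Log2 CPM at 36.34 kb had the most negative correlation with the window at 1.38 kb, with r = -0.71 over the 14 mice and -0.40 without the 2 mice farthest from the median.

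**Figure D4:**
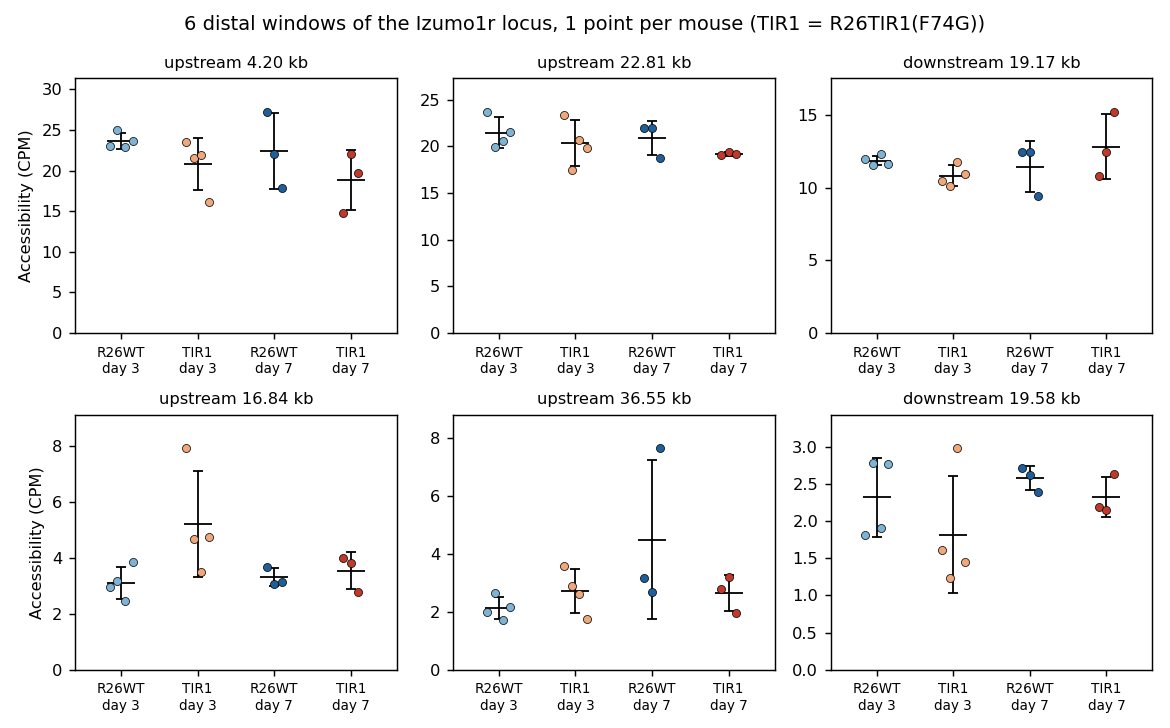
Accessibility in CPM (vertical axes from 0) of 6 windows away from the Izumo1r start site in each mouse by genotype and day; points are mice, horizontal lines means and bars SDs. In the 3 tall windows of the upper row the genotypes overlap within each day. The window 16.84 kb upstream reaches 7.91 CPM in 1 R26TIR1(F74G) mouse of day 3, and the window 36.55 kb upstream reaches 7.65 CPM in 1 R26WT mouse of day 7.

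Over time none of the 52 members other than the one that led to the gene was called by edgeR in either genotype, and 0% of the 240778 windows were called in each. Of these 52, 6 had an unadjusted p under 0.05 between the days in R26WT mice, against 5.17% of all windows. Of these 6, 5 overlap each other or lie within the group about 36 kb upstream, and they are not separate observations. The sixth was the window at 0.49 kb inside the gene, at -0.39 (SE 0.18, adjusted p = 0.96). In R26TIR1(F74G) mice 2 of the 52 had an unadjusted p under 0.05, against 6.87% of all windows. These were the window at 16.84 kb upstream, at -0.47 (SE 0.21, adjusted p = 0.67), and one 8.48 kb inside the gene, at -0.63 (SE 0.26, adjusted p = 0.64). Both time comparisons share the day 7 mice with the comparison of the genotypes that led to the gene, so these counts are no independent evidence.

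None of the neighbouring genes was called at its start on day 3 or on day 7, when edgeR called 11 of all 237811 windows tested, or 0.00463%. DESeq2 called 0 windows on day 7, and edgeR called 0 to 27 when 1 mouse was left out. Gpr83 had 14.4 CPM in the highest window within 1 kb of its start, with log2 differences between the genotypes of -0.04 (SE 0.14) on day 3 and 0.05 (SE 0.13) on day 7. Panx1, a channel protein gene, had 21.9 CPM, and Ankrd49 and Mre11a, which share a window between their starts, 38.1 CPM. Of 8 genes within 200 kb, Izumo1r included, 6 had such a window. None of these 6 had an unadjusted p under 0.05 on day 3, against 7.55% of all windows. On day 7 the same held for the neighbours without Izumo1r, against 5.96% of all windows. The Izumo1r window was left out there because the day 7 comparison led to the gene.

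Genes of folate uptake and one-carbon metabolism were compared at their starts. The other folate receptors, Folr1 and Folr2, had no window within 1 kb of their starts, whereas the reduced folate carrier gene Slc19a1 had 30.0 CPM and the proton-coupled carrier gene Slc46a1 3.43 CPM. Of 27 genes 21 had a window, with a median of 32.7 CPM, and the lowest was 3.08 CPM at Aldh1l1, a formyltetrahydrofolate dehydrogenase. None was called in either direction on day 3 or day 7, and the median log2 difference was -0.02 and 0.01. At an unadjusted p under 0.05 there were 2 on day 3, Shmt1, a serine hydroxymethyltransferase, at -0.32 (SE 0.13, adjusted p = 0.58), and Aldh1l1 at 0.55 (SE 0.25, adjusted p = 0.63), against 7.55% of all windows, and 0 on day 7, against 5.96% of all windows.

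Of 14 genes of anergy and of suppressive surface molecules, 13 had a window at the start and none was called on either day. An unadjusted p under 0.05 was found at 0 of them on both days, against 7.55% of all windows on day 3 and 5.96% on day 7. Nt5e, which encodes CD73, had 12.1 CPM and log2 differences of -0.06 (SE 0.13) on day 3 and 0.06 (SE 0.14) on day 7. The median over the list was -0.09 and 0.06, with a range of -0.54 to 0.18 on day 3 and -0.17 to 0.30 on day 7. In the family of the sperm partner, Izumo2 and Izumo3 had no window, and Izumo1 had 1.14 CPM. Izumo4 had 58.9 CPM and, on day 3, a log2 difference of -0.31 (SE 0.11, adjusted p = 0.53). That was the one unadjusted p under 0.05 among the 3 genes of this list with a window, against 7.55% of all windows. Cd9, a tetraspanin gene of the egg surface, had 5.80 CPM, and none of these was called.

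Among 9989 protein-coding genes with a well-covered window at the start, the 5 whose log2 CPM followed the most accessible Izumo1r window most closely over the 14 mice were Slc4a2 and Cdk5, which share a window, Pon2, Itgb2 and Trmt12. Their Pearson's r was 0.85 to 0.88, and 0.64 to 0.86 without the 2 mice farthest from the median. These values describe likeness across shared libraries and carry no test.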

How the data were processed

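Treg cells of 14 mice were profiled by bulk ATAC-seq. Per the labels and the study's methods, the authors used Bowtie2 against mm10 and MACS2 for peaks, reduced these to reproducible ones, merged the sets, and obtained read numbers at summits with featureCounts. The deposited values are raw counts per window and library, and the count origin of window starts (0 or 1) is not given in the sources used here. How duplicates and the Tn5 offset were treated cannot be changed at this stage. Groups came from the labels. Windows averaging 10 or more counts in the mice compared were tested with edgeR 4.0.16 (TMM, quasi-likelihood, Benjamini-Hochberg over all windows, threshold 0.05) in R 4.3.3. Genotypes were compared within each day, and days and the difference of genotype effects in 1 fit of all libraries. Each SE of an edgeR log2 difference is the absolute difference divided by the square root of the test's F statistic. Such SEs are unsteady where the difference is close to none. DESeq2 1.42.0, limma 3.58.1 (loess offsets) and Python 3.11.15 served the alternatives and summaries. Of these steps only edgeR's test of genotype was tried on simulated counts, modelled on the day 3 libraries. The comparisons on day 7 and over time were not simulated. Correlations used log2(CPM + 0.5).

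The gene, its members and the gene lists were chosen with earlier results of these data known. Windows named are the one nearest the start, the most accessible, the one with the smallest day 7 p, and the most positive and negative on day 3; all others were chosen after their values were seen. Genes were described by their most accessible window within 1 kb of the start. Start sites and promoter sequences are RefSeq's for GRCm38.p6, with strands of 17491 genes from its promoter table and of 3946 from GENCODE by symbol; exons were not used here. Nothing in the labels says whether mice of a group shared a litter or a day, so p-values measure the spread between these libraries. Reads without molecular identifiers are not independent molecules.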

Additional observations from a re-analysis of the deposited data

How the results depend on the processing

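No window of the Izumo1r locus was called on day 3 under any alternative run, and none of the 52 other than the one that led to the gene was called over time in either genotype. On day 7, where members were not tested, the median log2 difference of the members was 0.084 and was 0.096 with the replicate block. That block changed no call among the members tested on day 3 or over time. Over all windows it gave 4 calls on day 3, where the main fit gave 0. Over time it gave 1 call in R26WT and 27 in R26TIR1(F74G) mice, where the main fit gave 0 in each. The replicate numbers did not pair the mice, since same-numbered mice had correlations of deviations from -0.0787 to 0.0652. The log2 difference of the window 1.38 kb inside the gene on day 3, -0.03, changed sign without passing the test: it was 0.02 with total counts, 0.04 with loess offsets, 0.05 with a mean count of at least 50 and 0.01 with a term for the prefix of the mouse name, and -0.19 to 0.14 when 1 mouse was left out. The log2 difference of the summed locus, -0.015 on day 3 and 0.031 on day 7, was 0.006 and 0.063 without the most accessible window and -0.063 and 0.039 with 1 window of each joined region. Members numbered 13 within 10 kb, 53 within 1 Mb and 33 after joining. Depth limits the window at 1.38 kb in R26WT day 7 replicate 3, where 29 counts gave an interval of 2.91 to 6.25 CPM. In the 2 day 3 groups of 4 mice, examined for 6 values each, no mouse passed Dixon's criterion, and the day 7 groups of 3 were not examined.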
